A study of Mus musculus with 13 samples.

Results

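The nuclear genes for subunits of the mitochondrial respiratory chain were examined in mouse neural stem and progenitor cells for 2 chromatin signals, the acetyltransferase KAT7 (also called HBO1) and acetylation of lysine 14 of histone 3 (H3K14ac), the residue on which KAT7 acts. The genes were chosen by symbol, outside the mitochondrial chromosome. They were the Nduf subunits of complex I, the Sdh subunits of complex II and the Uqcr subunits of complex III. From complexes IV and V came the Cox4 to Cox8 and the Atp5 subunits. Symbols holding -ps were left out. This did not remove every entry named as a copy, since Ndufa11b, Ndufb4b, Ndufb4c and Ndufs6b stayed in. The rule found 87 of the 20689 genes with a gene body entry. Complex I had 41 of them, complex II had 4, complex III had 8, complex IV had 17 and complex V had 17. They lie on 19 chromosomes.

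The respiratory chain carries electrons from NADH (complex I) and succinate (complex II) through complexes III and IV to oxygen, and pumps protons across the inner mitochondrial membrane. Complex V, the ATP synthase, uses the proton gradient to make ATP. Complex II is encoded in the nucleus alone, whereas the other complexes also hold subunits encoded in mitochondrial DNA, so that nuclear and mitochondrial transcription have to be matched. Most nuclear subunit genes are expressed in nearly every cell and start in CpG islands, and transcription factors such as NRF1, the ETS factor GABPA and YY1 are known to bind near many of their starts. Some complex IV subunits also have forms restricted to particular tissues.

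Cells of the cortex and ganglionic eminences of embryos at embryonic day 14.5 were grown as floating neurospheres and used at passage 5, day 3, for chromatin immunoprecipitation with sequencing (ChIP-seq). Per the labels there were 13 libraries. For KAT7, 1 came from Kat7-deleted and 3 from Kat7-intact cells, for H3K14ac 3 came from deleted and 4 from intact cells, each isolate from its own animal, and 2 were IgG controls. The deleted cells were Kat7lox/loxNesCreT/+ and the intact cells Kat7+/+NesCreT/+, so the controls carried the nestin-driven Cre as well, and Cre acts in the cells that express it, here neural progenitors. The table used holds 1 KAT7 and 1 H3K14ac value per region, each merged over libraries by the authors. The sources used here do not say which libraries or genotypes were merged, so deleted and intact cells could not be compared and no IgG background could be taken off.

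Levels are given as RPKM, that is reads per kilobase of region, scaled to the reads of the column (134111848 reads for KAT7 and 141734087 for H3K14ac), with exact Poisson 95% intervals. The KAT7 to H3K14ac ratio divides the RPKM values and has an exact binomial (Clopper-Pearson) 95% interval. Both intervals cover counting error only, since the values used are merged over libraries. The antibodies have no shared scale, so a ratio is read against other genes rather than against 1, and a difference in how many cells carry a signal cannot be told apart from a difference in how much each cell carries. The table marks each gene as Top, Other or Bottom in expression. The Top class held 4 of 5 neural stem and progenitor markers (Nes, Sox2, Vim and Fabp7), with Pax6 in Other, and held none of 3 neuronal, 2 muscle and 1 erythroid markers.

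Of the 87 respiratory chain genes, 57 (65.5%) were in the Top expression class, against 4.95% of all genes, and none was in the Bottom class. Complex I had 26 Top genes of 41, complex II had 3 of 4, complex III had 7 of 8, complex IV had 9 of 17 and complex V had 12 of 17. They made up 5.57% of the Top class. The sources used here do not give the expression data from which the classes were made. A CpG island held the transcription start site (TSS) of 63 genes (72.4%), against 76.7% of the other Top genes and 49.1% of all genes. Of these 63 islands, 17 (27.0%) also held the TSS of a neighbouring gene, against 10.8% of all such islands, so their reads cannot be given to 1 gene alone. The gene bodies were short, with a median of 6751 bases (351 to 105383) against 16673 bases for all genes.

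The promoter sequences of 5 complex III and V genes are shown because their islands had the highest and lowest KAT7 to H3K14ac ratios among those whose RefSeq start is the TSS of the table, so that upstream bases can be set beside the signal. Each is the 150 bases before the start, 5′ to 3′ on the strand of the gene, from RefSeq (GRCm38.p6, the assembly of which mm10 is the browser name). Capitals mark the ETS core CCGGAAG or the NRF1 core GCGCATG, found on either strand. The printed windows are chr11:115419920-115420069 (minus strand) for Atp5h, chr2:174464102-174464251 (minus strand) for Atp5e, chr15:102671048-102671197 (minus strand) for Atp5g2, chr10:80142165-80142314 (plus strand) for Atp5d and chr13:30545317-30545466 (minus strand) for Uqcrfs1. The windows of Atp5h, Atp5e and Uqcrfs1 lie within their islands, that of Atp5g2 lies partly outside and that of Atp5d mostly outside. The islands of Atp5h and Atp5e had more KAT7 than H3K14ac, and the window of each held 1 ETS core. The islands of Atp5g2, Atp5d and Uqcrfs1 had more H3K14ac than KAT7. The Atp5g2 window held the NRF1 core on both strands, overlapping itself, and the windows of Atp5d and Uqcrfs1 held none of the motifs searched. These islands were picked by their ratio, so they do not show whether a motif goes with a signal. Over all islands with promoter sequence the ratio was 1.04 with the ETS core and 1.05 without it. Over the respiratory chain islands it was 1.12 (0.981 to 1.28) with that core and 0.937 (0.877 to 1.00) without it.
Atp5h: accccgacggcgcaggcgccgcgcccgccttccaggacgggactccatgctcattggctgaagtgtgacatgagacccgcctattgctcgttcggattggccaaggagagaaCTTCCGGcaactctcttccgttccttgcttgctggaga
Atp5e: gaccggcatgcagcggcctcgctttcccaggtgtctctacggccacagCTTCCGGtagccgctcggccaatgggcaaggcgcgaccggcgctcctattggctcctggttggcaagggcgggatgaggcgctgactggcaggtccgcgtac
Atp5g2: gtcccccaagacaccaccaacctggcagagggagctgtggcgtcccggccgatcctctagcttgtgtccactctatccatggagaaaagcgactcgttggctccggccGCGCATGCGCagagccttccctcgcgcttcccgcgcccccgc
Atp5d: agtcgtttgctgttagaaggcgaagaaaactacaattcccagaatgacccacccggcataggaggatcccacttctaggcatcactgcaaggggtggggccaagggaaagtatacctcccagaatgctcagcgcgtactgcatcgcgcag
Uqcrfs1: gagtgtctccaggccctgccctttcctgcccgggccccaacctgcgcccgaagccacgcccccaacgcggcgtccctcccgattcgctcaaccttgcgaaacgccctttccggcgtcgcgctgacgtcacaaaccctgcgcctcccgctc

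At the islands that hold their TSS, the respiratory chain genes had a little more of both signals than CpG islands with a TSS at large, and about the same balance of KAT7 to H3K14ac as other Top genes. Summed over the 63 islands, KAT7 was 0.524 RPKM (0.504 to 0.544) and H3K14ac was 0.544 RPKM (0.524 to 0.564), with a ratio of 0.963 (0.913 to 1.02). The other 733 Top islands had 0.555 RPKM of KAT7 (0.550 to 0.561) and 0.574 RPKM of H3K14ac (0.569 to 0.579), with a ratio of 0.967 (0.955 to 0.980). The ratios of these groups overlapped, and both summed levels were lower at the respiratory chain islands. Over the 61 autosomal islands, with 0.542 RPKM of KAT7 (0.521 to 0.563) and 0.562 RPKM of H3K14ac (0.541 to 0.583), the intervals overlapped those of the other Top islands. The medians over single islands were 0.541 RPKM of KAT7 and 0.499 RPKM of H3K14ac, against 0.537 and 0.540 RPKM over the other Top islands and 0.482 and 0.452 RPKM over all 9139 islands. The respiratory chain islands were also shorter, with a median of 505 bases against 734 bases for the other Top islands and 656 bases for all.

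A level was called high or low where it lay at least 1.2-fold above or below the median of all islands with an interval that left the median out. KAT7 was high at 12 islands (19.0%) and low at 3 (4.76%), and 15.2% and 14.6% of all islands were called so. Of the other Top islands 27.0% were high and 9.28% low in KAT7. H3K14ac was high at 20 islands (31.7%) and low at 6, against 22.6% and 21.2% of all islands. Over the other Top islands 40.5% were high in H3K14ac. The counts behind an island were small, from 9 to 126 KAT7 reads and from 7 to 129 H3K14ac reads, which leaves wide intervals.

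The most H3K14ac stood at Cox7c, a small subunit of cytochrome c oxidase, with 1.00 RPKM (0.806 to 1.24), and at Ndufc2, an accessory subunit of the membrane arm of complex I, with 0.986 RPKM (0.751 to 1.27). Ndufc1 (0.958 RPKM), the catalytic beta subunit gene Atp5b (0.950 RPKM) and Atp5d (0.938 RPKM) followed, within each other's intervals. The most KAT7 stood at Ndufc2 and at Ndufs4, an accessory subunit whose loss causes Leigh syndrome in humans, both with 0.954 RPKM. Atp5e had 0.905 RPKM of KAT7 and Sdhc had 0.849 RPKM. Cox7c had 0.652 RPKM of KAT7 (0.489 to 0.850). Ndufc2 and Cox7c were called high in both signals, as were Ndufs4, Sdhc, Uqcrc2, Cox5a, Cox6c, Atp5b and Atp5g3. The lowest H3K14ac was 0.160 RPKM at Atp5h, and the lowest KAT7 was 0.176 RPKM at Ndufb11 on chromosome X. Ndufa1, the other complex I gene with an island on X, had 0.317 RPKM of KAT7 and 0.225 RPKM of H3K14ac.

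**Figure D1:**
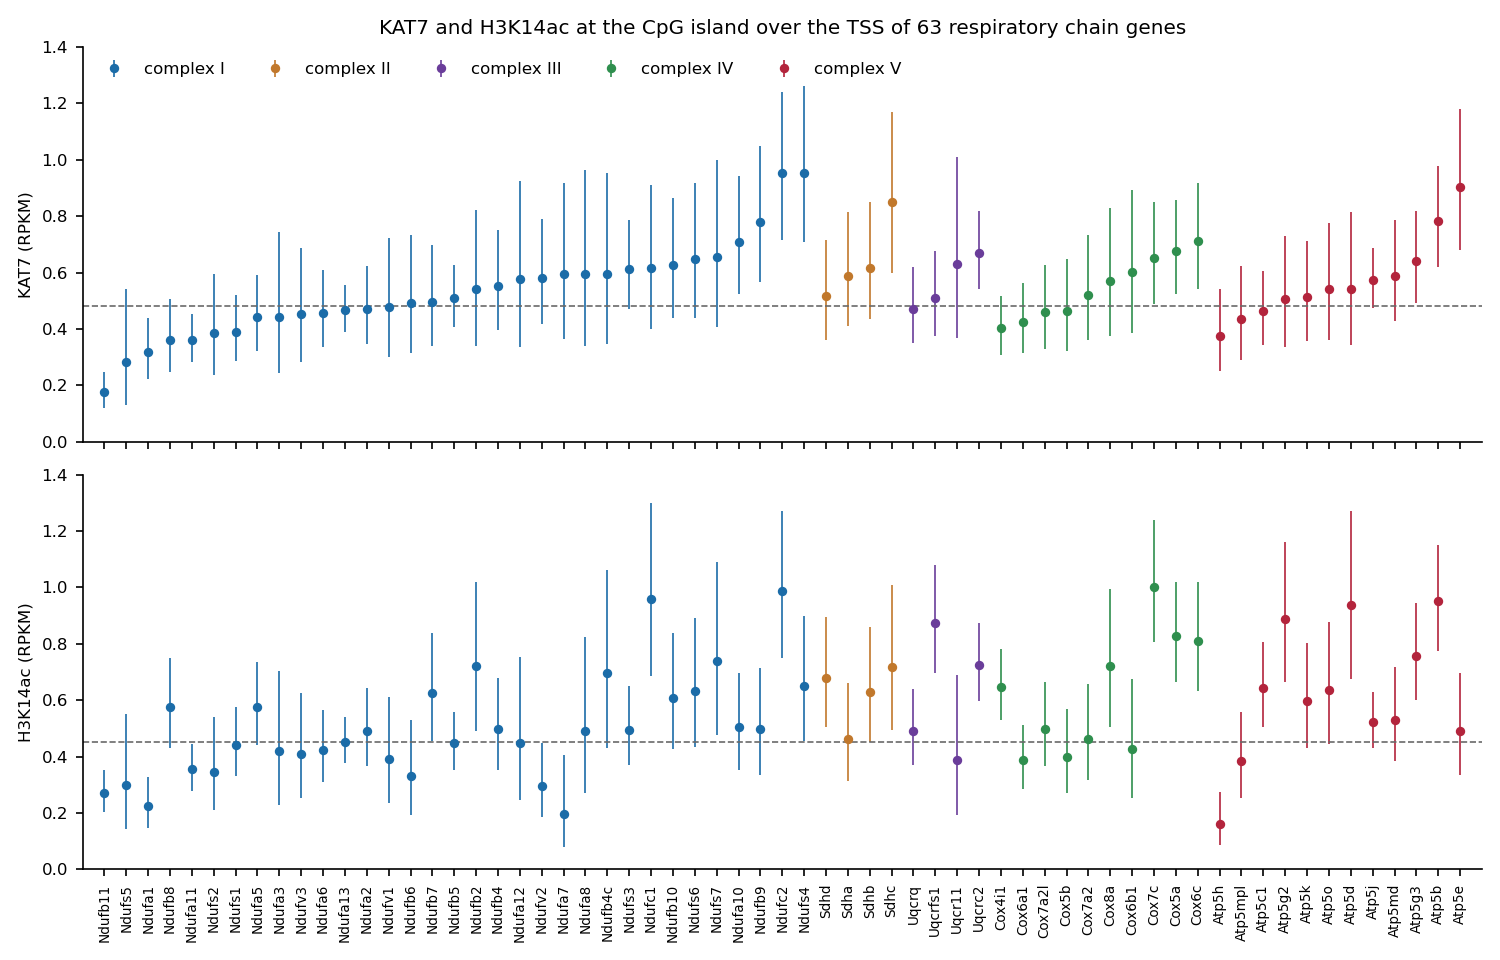
KAT7 (upper panel) and H3K14ac (lower panel) in RPKM at the CpG island over the TSS of each of 63 genes, ordered within each complex by KAT7. Points are single islands, vertical lines their exact Poisson 95% intervals and dashed lines the medians of all 9139 islands (0.482 and 0.452 RPKM). H3K14ac runs from 0.160 RPKM at Atp5h to 1.00 RPKM at Cox7c, and most intervals overlap.

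The balance of the signals was called where the ratio passed 1.5-fold in either direction with an interval that left 1 out. KAT7 was the higher at 4 of the 63 islands (6.35%), where 12.7% of all islands were called, and H3K14ac was the higher at 6 (9.52%), where 6.38% were called. Of the other Top islands 9.82% had the higher KAT7 and 10.2% the higher H3K14ac, so the H3K14ac share was close to theirs. The 4 with the higher KAT7 were 2 complex I and 2 complex V genes. Ndufa7, an accessory subunit of complex I, had 20 KAT7 and 7 H3K14ac reads (chr17:33824456-33824707, ratio 3.02, 1.23 to 8.45) in an island shared with the ribosomal protein gene Rps28. Ndufv2, an iron-sulfur subunit of the NADH-oxidising module, had 41 and 22 reads (chr17:66101245-66101770, ratio 1.97, 1.15 to 3.47). Atp5h, which encodes subunit d of the peripheral stalk of the ATP synthase, had 29 and 13 reads (chr11:115419719-115420294, ratio 2.36, 1.19 to 4.94) in an island shared with Kctd2. Atp5e, the epsilon subunit of the central stalk, had 54 and 31 reads (chr2:174463851-174464296, ratio 1.84, 1.16 to 2.96). At Ndufa7, Ndufv2 and Atp5h the H3K14ac level was low against all islands, while at Atp5e the KAT7 level was high.

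The 6 islands with more H3K14ac belonged to all complexes except complex II. Atp5g2, which encodes the c subunit of the membrane rotor, had 28 KAT7 and 52 H3K14ac reads (chr15:102670744-102671157, ratio 0.569, 0.346 to 0.918). Atp5d, the delta subunit of the central stalk, had 23 and 42 reads (chr10:80142295-80142611, ratio 0.579, 0.332 to 0.985). Uqcrfs1, the Rieske iron-sulfur protein of complex III, had 47 and 85 reads (chr13:30544890-30545577, ratio 0.584, 0.400 to 0.844). All of these had an H3K14ac level above the median of all islands and a KAT7 level near its median. Cox4i1, the general form of subunit 4 of cytochrome c oxidase, had a ratio of 0.624 (0.448 to 0.862) in an island shared with Emc8 (chr8:120667661-120668809). Ndufb8, a membrane arm subunit, had a ratio of 0.626 (0.391 to 0.987, chr19:44554852-44555516) and Cox7c a ratio of 0.649 (0.453 to 0.920, chr13:86046277-86046895). Atp5d and Atp5e, whose products sit together in the central stalk, thus lay at opposite ends of the range.

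Just outside these calls, Ndufb9 (ratio 1.57, 0.956 to 2.60) and Uqcr11 (1.63, 0.722 to 3.86) passed the fold with intervals that held 1, as did Ndufc1 (0.644, 0.376 to 1.09) and Ndufb11 (0.650, 0.405 to 1.03) in the other direction. Ndufb6 at 1.49 and Ndufs4 at 1.47 missed the fold. The other complex III islands were at 0.961 (Uqcrq) and 0.921 (the core protein gene Uqcrc2), and those of complex II ran from 0.761 (Sdhd) to 1.27 (Sdha). In complex IV the highest were Cox6b1 at 1.41, Cox5b at 1.16 and Cox7a2 at 1.13, and in complex V the next after Atp5e was Atp5mpl at 1.14, all with intervals that held 1.

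Complex I islands had less H3K14ac than those of the other complexes. H3K14ac was 0.465 RPKM (0.440 to 0.492) over 33 complex I islands, against 0.626 RPKM (0.596 to 0.657) over the 30 islands of complexes II to V, a ratio of 0.744 (0.691 to 0.801). KAT7 was 0.486 RPKM (0.460 to 0.514) against 0.563 RPKM (0.534 to 0.593), a ratio of 0.863 (0.799 to 0.933). Of the complex I islands 18 of 33 lay above the H3K14ac median of all islands, against 24 of 30 of the others. Among the 10 pairs of complexes, H3K14ac in complex I was below each other complex, with ratios of 0.754 to complex II, 0.695 to III, 0.743 to IV and 0.761 to V, and every interval left 1 out. Between complexes II, III, IV and V no island difference in H3K14ac or KAT7 passed counting error, with H3K14ac ratios from 0.922 (complex II to III, 0.750 to 1.13) to 1.10 (complex III to V, 0.945 to 1.27).

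Among short islands that difference did not pass counting error. Among islands of at most 500 bases, complex I (19 islands) had 0.561 RPKM of H3K14ac against 0.590 RPKM in complexes II to V (12 islands), a ratio of 0.951 (0.830 to 1.09). For KAT7 the ratio was 0.996 (0.869 to 1.14). Among longer islands H3K14ac was 0.420 RPKM (0.391 to 0.451) over 14 complex I islands against 0.638 RPKM (0.603 to 0.674) over 18 others, a ratio of 0.659 (0.602 to 0.722). Autosomal islands of all lengths gave an H3K14ac ratio of 0.788 (0.731 to 0.850), within the interval of all member islands (0.691 to 0.801). Islands holding only the TSS of the named gene gave 0.817 (0.744 to 0.898), and autosomal Top islands of that kind gave 0.882 (0.789 to 0.984). Island length and shared starts thus moved with the complex I value. Their part in it was not tested, nor was that of chromosome X. This grouping by length, start and chromosome was chosen after the values had been seen.

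The ratio of the signals at islands was 1.04 (0.965 to 1.13) in complex I, 1.01 (0.798 to 1.27) in complex II, 0.850 (0.705 to 1.02) in complex III, 0.848 (0.748 to 0.962) in complex IV and 0.939 (0.838 to 1.05) in complex V. Within complex I, the 6 measured core subunits, which carry the flavin and iron-sulfur centres, had 0.435 RPKM of H3K14ac (0.376 to 0.501) and the 27 accessory subunits 0.471 RPKM (0.444 to 0.500), so the intervals overlapped. The 4 islands of the F1 subunits of complex V had 0.752 RPKM of H3K14ac (0.661 to 0.851), and the 2 islands of the c subunit genes Atp5g2 and Atp5g3 had 0.804 RPKM (0.673 to 0.954). In complex II, Sdha (the flavoprotein) had 0.587 RPKM of KAT7 and 0.463 RPKM of H3K14ac, and Sdhb (the iron-sulfur subunit) had 0.616 and 0.630 RPKM. Of the membrane anchors, Sdhc had 0.849 RPKM of KAT7 and 0.716 RPKM of H3K14ac, and Sdhd had 0.517 and 0.680 RPKM in an island shared with Timm8b. The 4 complex II islands differed by less than their intervals in H3K14ac.

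**Figure D2:**
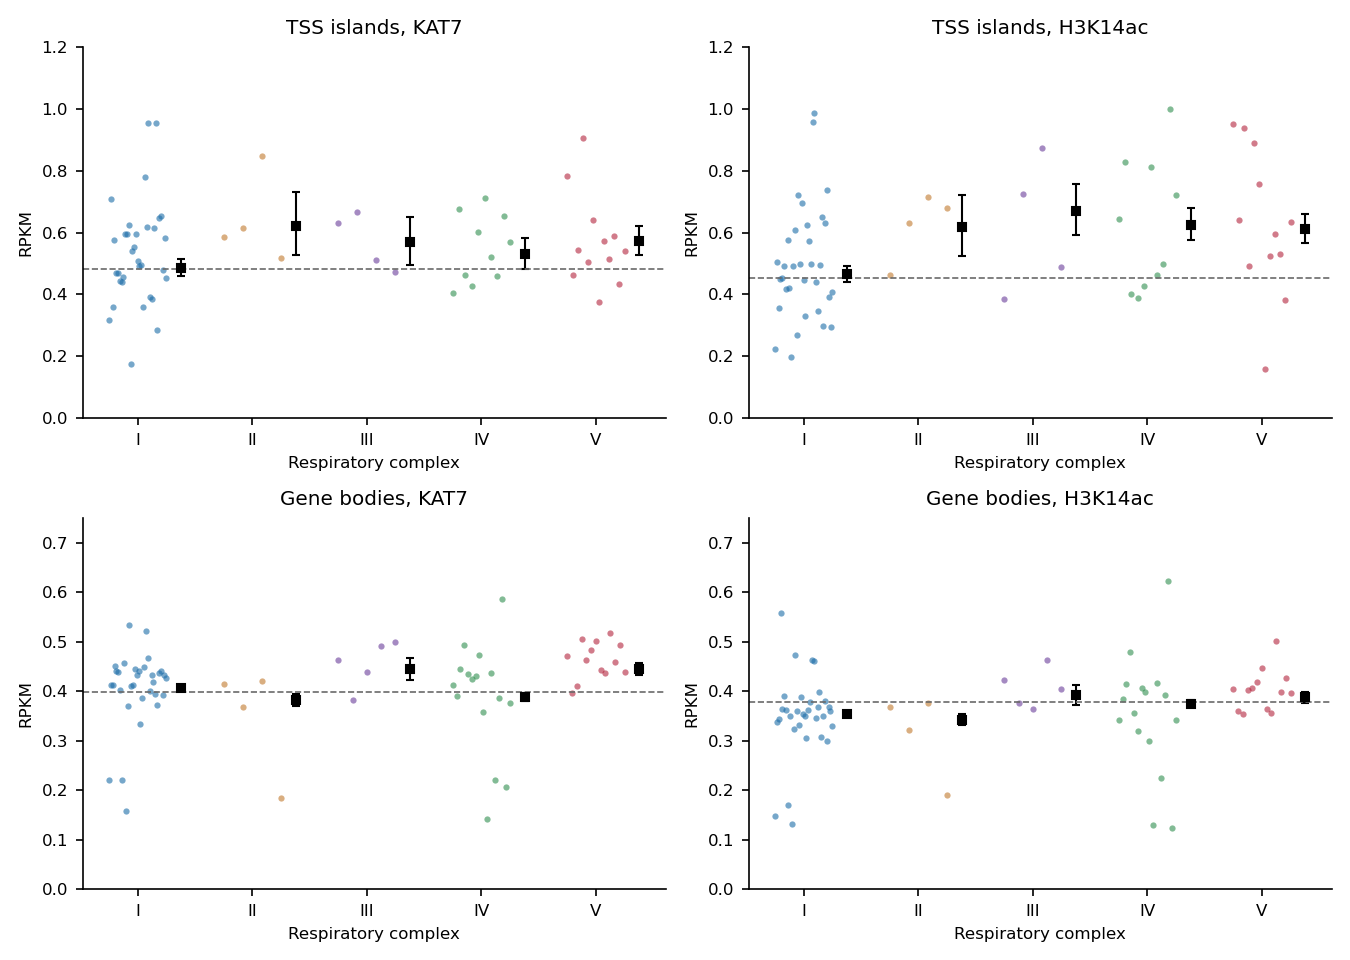
Levels in RPKM by respiratory complex at TSS islands (upper row) and over gene bodies (lower row), KAT7 at left and H3K14ac at right. Small points are single genes, black squares the summed level of the complex with its exact Poisson 95% interval, and dashed lines the medians over all islands or all gene bodies. Complex I lies lowest in H3K14ac at islands (0.465 RPKM, against 0.611 to 0.669 RPKM in the other complexes), while over gene bodies complexes I and II (0.354 and 0.342 RPKM) are not apart beyond counting error.

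Short elements that the table names Enh and IS were then placed by the distance of their centre from the TSS, since an island mixes both sides of the start. In the 250 bases upstream, 24 elements of the respiratory chain genes had 0.549 RPKM of KAT7 (0.487 to 0.616) and 0.334 RPKM of H3K14ac (0.288 to 0.386). The ratio there was 1.64 (1.36 to 1.99), beside 1.58 (1.5 to 1.67) at other Top genes and 1.33 (1.32 to 1.35) at genes of the Other class. In the 250 bases downstream, 17 elements had 0.559 RPKM of KAT7 (0.491 to 0.634), against 0.606 RPKM (0.588 to 0.623) at other Top genes, and 0.774 RPKM of H3K14ac (0.696 to 0.859). H3K14ac was thus higher than the 0.642 RPKM (0.625 to 0.660) of other Top genes in that bin, and the ratio of 0.722 (0.611 to 0.852) was below their 0.943 (0.906 to 0.982).

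Farther downstream the summed H3K14ac was no longer above that of other Top genes. Between 250 and 500 bases, 9 elements had 0.711 RPKM of KAT7 (0.604 to 0.832) and 0.898 RPKM of H3K14ac (0.780 to 1.03), against 0.819 RPKM (0.795 to 0.843) and 1.06 RPKM (1.03 to 1.09) at other Top genes. Between 500 and 1000 bases, 6 elements had 0.687 RPKM of KAT7 (0.566 to 0.828) and 0.721 RPKM of H3K14ac (0.599 to 0.860), against 0.925 RPKM (0.901 to 0.950) and 0.944 RPKM (0.920 to 0.969). The 2 complex I elements between 500 and 1000 bases had 0.156 RPKM of H3K14ac (0.0715 to 0.297), on 9 reads. The 4 elements of complexes II to V there had 1.01 RPKM (0.831 to 1.21), so the lower sum was not shared by the complexes. The remaining bins held 2 or 3 elements each. These are few elements of few genes, and the bins were not adjusted for the number of comparisons. In the upstream bin the 7 complex I elements had 0.217 RPKM of H3K14ac (0.147 to 0.308), against 0.375 RPKM (0.318 to 0.438) at the 17 elements of complexes II to V, with overlapping KAT7 levels (0.592 and 0.534 RPKM).

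**Figure D3:**
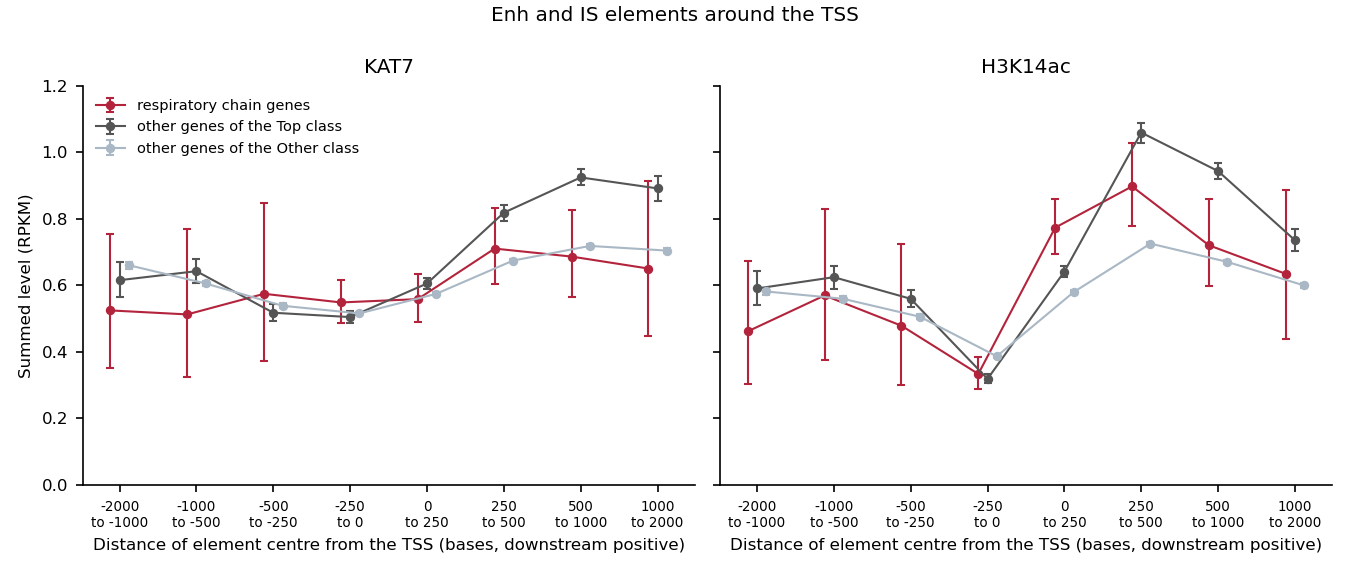
Summed KAT7 (left) and H3K14ac (right) in RPKM over Enh and IS elements by the distance of the element centre from the TSS in bases, downstream positive, for the respiratory chain genes, the other Top genes and the other genes of the Other class. Bars are exact Poisson 95% intervals. H3K14ac of the respiratory chain genes is 0.334 RPKM just upstream of the TSS and 0.774 RPKM just downstream, while KAT7 is 0.549 and 0.559 RPKM.

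Over gene bodies the respiratory chain genes had less H3K14ac for their KAT7 than genes at large, as other Top genes did. Of the 87 genes, 82 passed the minimum of 0.1 RPKM in the mean of both columns, and 70 of these shared no base with another gene body and were used (32 of complex I, 4 of II, 5 of III, 16 of IV and 13 of V). The summed level was 0.405 RPKM of KAT7 (0.401 to 0.409) and 0.363 RPKM of H3K14ac (0.360 to 0.367), a ratio of 1.11 (1.10 to 1.13). The medians over genes were 0.432 RPKM of KAT7, 0.364 RPKM of H3K14ac and a ratio of 1.15. Over the other 773 Top genes the medians were 0.435 RPKM, 0.388 RPKM and 1.13, and over all 16441 gene bodies 0.398 RPKM, 0.379 RPKM and 1.05. KAT7 exceeded the median of all in 50 of the 70 genes, H3K14ac did so in 28, and the ratio did so in 60.

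The ratio of a gene body was called where it passed 1.2-fold with an interval that left 1 out. KAT7 was the higher in 19 of 70 genes (27.1%), where 10.3% of all gene bodies and 21.9% of other Top gene bodies were called. H3K14ac was the higher in none, where 1.55% of all were called. With ratios divided by the median of all gene bodies, 8 of the 70 (11.4%) had the higher KAT7 and none the higher H3K14ac, where 5.49% and 3.13% of all gene bodies were called. Of the calls over all gene bodies 63.7% then had the higher KAT7, against 86.9% before that scaling. The mitochondrial ribosomal protein genes, another set of nuclear genes for mitochondria, had 54.7% of 64 gene bodies called for KAT7 and a median ratio of 1.22. Since the ratio varies with gene length and these genes are short, each gene was also divided by the median of its length band, 1 of 10 of equal gene number. The median was then 1.08 for KAT7, 0.978 for H3K14ac and 1.07 for the ratio, which lay above 1 in 58 of 70 genes.

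Within the length bands that held most of the genes, their median ratio was 1.18 at 2316 to 4786 bases (16 genes), 1.14 at 4789 to 7967 bases (20 genes) and 1.17 at 7968 to 12203 bases (11 genes). Other Top genes of these lengths had 1.16, 1.18 and 1.16, and all genes had 1.07, 1.08 and 1.07. The respiratory chain genes therefore lay above genes of their length at large in each of these bands, and close to other Top genes of their length.

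Complex I supplied 12 of the 19 calls, out of 32 genes. Ndufs8, a core iron-sulfur subunit of the arm that reaches into the matrix, had 227 KAT7 and 163 H3K14ac reads (chr19:3908870-3912717, ratio 1.47, 1.2 to 1.81), with 0.440 RPKM of KAT7 and 0.299 RPKM of H3K14ac. Ndufa1, on chromosome X (chrX:37187588-37191238), had 0.221 RPKM of KAT7 and 0.147 RPKM of H3K14ac (ratio 1.5, 1.11 to 2.04). Ndufa7 (ratio 1.30, 1.18 to 1.45), Ndufv3 (1.30, 1.15 to 1.46), Ndufs5 (1.28, 1.08 to 1.53), Ndufb6 (1.27, 1.11 to 1.44) and Ndufb3 (1.24, 1.09 to 1.41) followed. Ndufa10 and Ndufb5 were at 1.22, and Ndufa11, Ndufa8 and Ndufv2 at 1.2. The lowest of complex I were Ndufa11b (0.808, 0.466 to 1.39), on 26 and 34 reads, and Ndufc2 (1.02, 0.895 to 1.15). Ndufs4, the longest used gene of complex I (100300 bases), had 1.05 (1.01 to 1.09) on 5628 KAT7 and 5656 H3K14ac reads, the narrowest interval of the complex. Ndufa4 is counted with complex I by its name, although its product is now placed in complex IV, and had 1.12 (0.977 to 1.29).

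In complex IV, Cox8a, the general form of subunit 8, had the highest ratio of all 70 genes (chr19:7215158-7217616, ratio 1.67, 1.12 to 2.51), on 68 KAT7 and 43 H3K14ac reads. Cox6b1 had 1.33 (1.17 to 1.51) on 523 and 416 reads, and Cox4i1 had 1.2 (1.02 to 1.42). Cox6a1 at 1.22 had an interval from 0.988, and Cox6c at 1.19 (1.03 to 1.38) lay just under the fold. Cox7c (0.943, 0.755 to 1.18) and Cox7b on chromosome X (0.978, 0.803 to 1.19) were lowest. In complex V the calls were Atp5e (1.25, 1.02 to 1.54), Atp5h (1.22, 1.02 to 1.47) and the membrane subunit gene Atp5j2 (1.22, 1.07 to 1.40), with Atp5k (1.03) and Atp5c1 (1.10) at the low end. In complex III the core protein gene Uqcrc1 was called (1.2, 1.08 to 1.34). Uqcrq had 1.23 (0.946 to 1.61), Uqcr10 had 1.10, Uqcrfs1 had 1.06 and Uqcrb had 1.01. None of the 4 complex II genes was called, with ratios from 0.963 at Sdhd to 1.15 at Sdhb. Ndufa7, Ndufv2, Atp5h and Atp5e had the higher KAT7 both over the body and at the island, which share some bases, whereas Cox4i1 had the higher KAT7 over its body and the higher H3K14ac at its island. Scaled to the median of all gene bodies, the body calls of Ndufv2 (1.15), Atp5h (1.17), Atp5e (interval 0.974 to 1.48) and Cox4i1 (1.15) were lost.

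**Figure D4:**
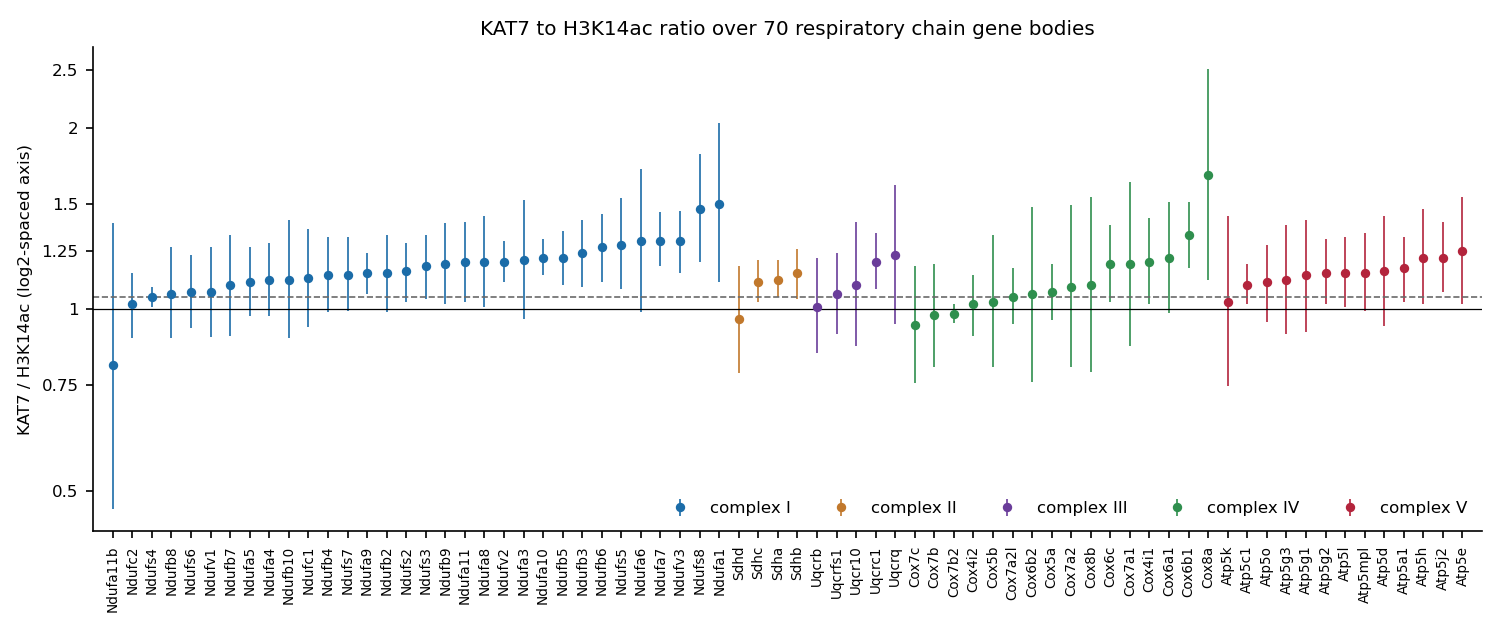
KAT7 to H3K14ac ratio, on a log-spaced axis, over 70 gene bodies ordered within each complex by the ratio, with exact binomial 95% intervals. The solid line marks 1 and the dashed line the median of all gene bodies, 1.05. Ratios run from 0.808 at Ndufa11b to 1.67 at Cox8a, and 60 of 70 lie above the dashed line.

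Summed over gene bodies, complex I had 0.406 RPKM of KAT7 and 0.354 RPKM of H3K14ac (ratio 1.15, 1.12 to 1.17), and complex II had 0.382 and 0.342 RPKM (1.12, 1.07 to 1.17). Complex III had 0.445 and 0.392 RPKM (1.13, 1.06 to 1.22) and complex V had 0.445 and 0.388 RPKM (1.15, 1.10 to 1.19). Complex IV stood apart with 0.389 and 0.375 RPKM (1.04, 1.01 to 1.06). This value rests on Cox7b2, which supplied 5459 of the 9741 KAT7 reads of complex IV; without the tissue-restricted forms complex IV had a ratio of 1.13 (1.07 to 1.18). Of the levels, KAT7 was high in 11 gene bodies (15.7%) and low in 7 (10%), against 5.27% and 7.94% of all. Of the other Top genes 20.2% were high and 4.01% low in KAT7. H3K14ac was high in 8 (11.4%) and low in 11 (15.7%), against 5.26% and 9.10% of all. Of the other Top genes 15.9% were high and 6.60% low in H3K14ac. Cox7c led both, with 0.586 RPKM of KAT7 and 0.622 RPKM of H3K14ac over a gene of 1998 bases. Ndufb10 was next in KAT7 (0.533 RPKM) and Ndufa11b in H3K14ac (0.557 RPKM). Complex V supplied 5 of the 11 genes high in KAT7, among them Atp5k (0.517 RPKM), Atp5e (0.505 RPKM) and Atp5g3 (0.501 RPKM).

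The tissue-restricted forms had a lower summed KAT7 to H3K14ac ratio than the general ones. They are Cox6a2, Cox7a1 and Cox8b of heart and skeletal muscle, Cox6b2 and Cox7b2 of testis, Cox4i2, known from lung and hypoxia, and Ndufa4l2, known from hypoxia. None of the 7 was in the Top class, which held only 4.95% of all genes. None had an island over its TSS, where 49.1% of all genes had one. Over the 5 with a usable gene body KAT7 was 0.387 RPKM (0.377 to 0.396) and H3K14ac was 0.390 RPKM (0.381 to 0.399), a ratio of 0.991 (0.957 to 1.03). Over the 65 other genes KAT7 was 0.408 RPKM (0.404 to 0.413), H3K14ac was 0.358 RPKM (0.354 to 0.362) and the ratio was 1.14 (1.12 to 1.16). Single ratios were 0.984 (0.948 to 1.02) at Cox7b2, 1.02 at Cox4i2, 1.06 at Cox6b2, 1.10 at Cox8b and 1.19 at Cox7a1, and the last 3 rest on 73 to 89 reads per column. Cox7b2 is 105383 bases long and decides the summed value, and the median ratio of all genes of its length band was 1.00. Their general counterparts had 1.2 (Cox4i1), 1.22 (Cox6a1), 1.33 (Cox6b1), 1.09 (Cox7a2), 0.978 (Cox7b) and 1.67 (Cox8a).

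Several gene body entries hold fewer reads than their length would give, and their levels are not measures of the whole gene. Ndufb4b, Ndufb4c, Ndufs6b and Uqcr11 overlap another entry almost wholly and held 0 reads in both columns. Ndufa12 held 231 KAT7 and 227 H3K14ac reads over 21940 bases (0.0785 and 0.0730 RPKM) and fell under the minimum with no overlap in its class. An entry of nearly the same span among those the table names Pseudogenes held 1072 and 1034 reads at Ndufa12 (0.363 and 0.332 RPKM), and 737 and 663 reads at Ndufa8 (0.422 and 0.359 RPKM), whose gene body entry had 274 and 241. Such pairs did not all look alike. At Cox7a2l the gene body held 728 and 732 reads and the other entry 726 and 730. At Sdha the gene body held 1557 and 1464 reads and the other entry 10 and 9. The sources used here do not say how reads were counted in such entries. Of the used autosomal genes, Cox7a2 (0.142 and 0.130 RPKM), Ndufa8 (0.158 and 0.131), Sdhd (0.184 and 0.191), Cox8a (0.206 and 0.123) and Ndufa6 (0.221 and 0.170) lay under 0.25 RPKM in both columns, KAT7 given first, which held for 0.590% of all such gene bodies. Atp5b, which shares 78 bases with Mir677, and Ndufs1, which shares 14704 bases with an antisense gene, were low as well (0.170 and 0.153, and 0.219 and 0.179 RPKM). The calls at Cox8a and Ndufa8 come from such entries, and without the entries under that bound 17 of the 19 calls were counted. Ndufb4b, Ndufb4c, Ndufs6b and Ndufa11b are named as copies of other members, and reads of near-identical copies may be placed on either. Ndufa1 and Cox7b, the 2 used genes on chromosome X, had 0.220 RPKM of KAT7 and 0.197 RPKM of H3K14ac together, against 0.408 and 0.366 RPKM over the 68 autosomal genes.

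Windows beyond the gene body were available for plus-strand genes. Over 26 promoter windows KAT7 was 0.420 RPKM (0.405 to 0.436) and H3K14ac 0.374 RPKM (0.361 to 0.389), a ratio of 1.12 (1.07 to 1.18), with 1.07 (1.06 to 1.09) at other Top genes. Over 27 windows after the transcription end KAT7 was 0.401 RPKM (0.387 to 0.416) and H3K14ac 0.328 RPKM (0.315 to 0.341). The ratio there was 1.23 (1.16 to 1.29), against 1.16 (1.15 to 1.18) at other Top genes and 1.06 at all genes. H3K14ac after the transcription end was also below the 0.369 RPKM (0.366 to 0.373) of other Top genes.

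Genes that build or regulate the chain were listed by their known function. Among the 28 assembly factor genes found, 1 was Top, and of 12 regulator genes none was, where 4.95% of all genes are Top. Over 25 usable gene bodies their median ratio was 1.13, and 7 had the higher KAT7 and none the higher H3K14ac, where 10.3% and 1.55% of all gene bodies were called. These were the copper chaperone gene Cox17 (1.27), Cox19 (1.26), Cox20 (1.23), Ndufaf1 (1.39), Ndufaf7 (1.22), Uqcc3 (1.48) and Atpaf2 (1.21). At 24 islands the higher KAT7 was called at Ndufaf5 (1.84) and Sdhaf1 (1.81) and the higher H3K14ac at none, where 12.7% and 6.38% of all islands were called. Over 9 regulator gene bodies Polrmt, the mitochondrial RNA polymerase (1.48, 1.30 to 1.69), and Tfb2m, its initiation factor (1.21), had the higher KAT7. At 11 regulator islands Yy1 (2.01, 1.58 to 2.58) and Gabpb1 (1.56, 1.23 to 1.99) had the higher KAT7, and Nrf1 (0.653, 0.502 to 0.846) and Pprc1 (0.572, 0.391 to 0.828) the higher H3K14ac. Gabpa and Atp5j share 1 island, with 115 KAT7 and 111 H3K14ac reads. Of the electron carrier and acyl carrier genes, Ndufab1 had a gene body ratio of 1.26 (1.14 to 1.40), Cycs, the somatic cytochrome c gene, had 1.11, and Cyct, its testis form, had 0.933. The islands of Cycs and Ndufab1 were not called.

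Promoter sequence was at hand for 69 of the 87 genes and for 52 of the 63 with a TSS island, as 300 bases from 250 before to 50 after the RefSeq start. The NRF1 core GCGCATG was found, on either strand, in 11 of the 52 (21.2%), against 9% of other Top promoters with an island and 8.22% of all. The ETS core CCGGAAG was found in 13 (25%), against 25% and 20.7%, and the YY1 core AAGATGG in 7 (13.5%), against 8.67% and 7.11%. TATAAA was found in 5 (9.62%), against 10.2% and 5.31%. The ETS core stood in 3 of 28 complex I windows (10.7%) and in 10 of 24 windows of complexes II to V (41.7%). The YY1 core stood in 6 (21.4%) and 1 (4.17%) of these windows, TATAAA in 4 (14.3%) and 1 (4.17%), and the NRF1 core in 5 (17.9%) and 6 (25%). The median GC content was 59.3%, against 62.7% at other Top genes and 64% at all. The shares were not tested, and a match to a short motif is no binding site by itself.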

How the data were processed

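KAT7 and H3K14ac were measured by ChIP-seq in the 13 libraries described above. The submitters' processing notes name the build mm10 and, among tools, featureCounts, deepTools, Picard, SAMtools and Bowtie2; the sources used here give neither their roles nor versions, nor the meaning of SC and gc in the column names. Per the file headers, the authors deposited 1 merged read count and 1 merged RPKM value per region for each antibody, over 240814 regions in 12 classes. RPKM equalled the count over end minus start and the column total in 100% of regions with a count (relative tolerance 1e-06).

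Levels were summed counts over summed length and column total. Regions with a mean RPKM below 0.1 and regions sharing bases with another of their class were left out. Symbols came from the RefSeq table of GRCm38.p6 (96.7% of gene bodies). Named were, per complex, the highest 3 and lowest 2 ratios, the highest 2 levels, all complex II genes, all restricted forms and genes without usable values. The genes, lists and rules were chosen with earlier results of these data known. Single regions are limited by their counts, and reads are not independent molecules. Alternatives covered filters, overlaps, scaling, medians, lengths, chromosome X, shared islands and a pseudocount of 0.1. The calls were checked on simulated counts with independent reads and, outside the changed regions, equal levels of both signals. The data meet neither condition, so that check does not give the error of the calls here. Python 3.11.15, NumPy 2.4.6, SciPy 1.17.1, pandas 2.3.3 and matplotlib 3.10.9 were used.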

Additional observations from a re-analysis of the deposited data

How the results depend on the processing

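Among 154 recomputed values, 97 were kept and 36 summary values moved. A summary level or ratio was kept if it stayed within its main interval, and a single gene if it was still called. A count of calls was kept if it stayed within a set fold of the main count. Another 21 gene body ratios of single genes, from 11 genes under scaling or the pseudocount, no longer passed the call. Summary values were scored only as kept or moved. Neither scaling nor the pseudocount could carry the ratio of a called gene across 1, so a reversal could not have been recorded. The gene body ratio of 1.11 became 1.14 without the tissue-restricted forms, 1.07 scaled to the median of all gene bodies, 1.15 as a median and 1.09 with a pseudocount of 0.1. KAT7 over gene bodies (0.405 RPKM) became 0.396 without the minimum, 0.398 with overlapping entries, 0.415 without the autosomal entries under 0.25 RPKM, 0.396 after scaling and 0.432 as a median. H3K14ac (0.363 RPKM) became 0.355, 0.353, 0.373 and 0.372 under those settings short of the median, and 0.358 without the restricted forms. The 19 gene bodies with the higher KAT7 became 8 after scaling and 9 with the pseudocount, by construction, since both lower these ratios. Without its member with most reads, complex I had 0.338 RPKM of H3K14ac, complex II 0.363 of KAT7 and 0.326 of H3K14ac, complex III 0.419 of H3K14ac, complex IV 0.353 of H3K14ac and complex V 0.464 of KAT7 over gene bodies. At islands the ratio of 0.963 became 0.911 after scaling and 1.02 as a median, so whether it lies above or below 1 is not fixed. With 1 TSS per island KAT7 was 0.575 RPKM, H3K14ac 0.613 RPKM and the islands with the higher KAT7 2 in place of 4; the median H3K14ac was 0.499 RPKM. Complex I over complexes II to V became 0.996 for KAT7 and 0.951 for H3K14ac in islands of at most 500 bases, 0.787 and 0.659 in longer ones, 0.935 and 0.817 with 1 TSS, and 0.954 and 0.882 for autosomal Top islands with 1 TSS; these subsets, the 0.25 RPKM bound and the removal of restricted forms were chosen after seeing the data. After scaling, 4 islands (6.35%) had the higher KAT7 and 7 (11.1%) the higher H3K14ac, where 9.98% and 8.78% of all islands were called; KAT7 then took 36.4% of the calls against 40% before, and over all islands 53.2% against 66.6%.

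No paired analysis was possible because the columns are merged over libraries and carry no replicate numbers; for the same reason leaving out each library was not run. Depth limits the islands most, which held as few as 7 reads in a column.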

Other observations

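The 7 islands of respiratory chain genes whose promoter window held the YY1 core AAGATGG had 0.729 RPKM of H3K14ac (0.647 to 0.818) and 0.603 RPKM of KAT7 (0.527 to 0.687). The 45 without it had 0.517 RPKM of H3K14ac (0.495 to 0.540) and 0.513 RPKM of KAT7 (0.491 to 0.537). Over all genes the H3K14ac levels were 0.495 and 0.465 RPKM. The 7 were Cox7c, Ndufa3, Ndufb8, Ndufc1, Ndufs4, Ndufs6 and Ndufs7, so 6 of them belong to complex I, the complex with the lower island H3K14ac. The other motifs went the other way in the respiratory chain islands. With the NRF1 core H3K14ac was 0.470 RPKM (0.426 to 0.516), and without it 0.555 RPKM (0.530 to 0.580). With the ETS core it was 0.492 RPKM (0.448 to 0.540), and without it 0.548 RPKM (0.524 to 0.574). Over all genes these levels were 0.477 and 0.466 RPKM for NRF1 and 0.494 and 0.461 RPKM for ETS. Island length was not matched in these comparisons, which were made after the values had been seen.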
